A study of Mus musculus with 6 samples.

Results

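The mRNA of 10 genes that encode scaffold proteins of the postsynaptic density was measured in the mouse hippocampus, the 4 Dlg genes (Dlg1, Dlg2, Dlg3 and Dlg4), the 3 Shank genes (Shank1, Shank2 and Shank3) and the 3 Homer genes (Homer1, Homer2 and Homer3). The rule takes them by symbol and uses no measured value, although the families were picked with earlier results of these data known. All 10 were found among the 54838 genes of the count table, and all 10 were among the 19087 genes with enough counts to be tested. Hippocampi were taken from females at the age of 7 months, 3 of the wild-type and 3 of the Tg(ORAI1)Ibd line, and each gave 1 library. The Tg(ORAI1)Ibd line is on the FVB/NJ strain and carries a coding sequence of human ORAI1, a plasma membrane calcium channel subunit, placed in a modified mouse Thy-1.2 cassette, which drives expression in neurons. The comparison asked which hippocampal mRNAs differ when neurons carry this additional channel subunit.

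Excitatory synapses in the hippocampus contact dendritic spines, and beneath the spine membrane lies the postsynaptic density, a layered lattice of scaffold proteins. The Dlg proteins SAP97 (Dlg1), PSD-93 (Dlg2), SAP102 (Dlg3) and PSD-95 (Dlg4) are membrane-associated guanylate kinases that hold glutamate receptors, potassium channels and adhesion proteins through their PDZ domains. Dlgap linker proteins join them to the Shank proteins, which lie deeper and reach towards actin. Homer proteins bind Shank, the group I metabotropic glutamate receptors and the calcium release channels of the endoplasmic reticulum through an EVH1 domain, and their long forms assemble through a coiled coil.

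Homer1 is made in long forms, which carry the coiled coil, and in short forms induced by neuronal activity, which lack it. Its coding sequence is printed because the counts were made per gene and so held reads of all these forms. In the GENCODE M21 annotation the short transcript Homer1-204 has 186 codons and the principal long transcript Homer1-201 has 354, and the first 175 are the same. The stretches below are coding bases 513 to 558 of each, counted from 1 at the first base of the start codon, with the shared bases in lower case and the bases after the point of divergence in capitals.
Homer1-204: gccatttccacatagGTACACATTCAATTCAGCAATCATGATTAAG
Homer1-201: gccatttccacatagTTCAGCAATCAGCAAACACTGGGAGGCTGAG
A change that moved reads from one of these forms to the other would leave the Homer1 count as it was, and the forms were not measured separately here.

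The promoters of the Homer genes are printed because Homer2 and Homer3 gave the largest differences of the 10 genes, in opposite directions, and because Homer1 is the activity-regulated member. The sequences are the RefSeq promoter windows on GRCm38.p6, from 250 bases before to 50 bases after a transcription start, and 8 of the 10 genes had an entry. Matches to TGACG on either strand (CGTCA on the strand shown), the core of the cAMP response element, are in capitals. The windows are those of the first listed start of Homer1 (chr13:93303507-93303806, plus strand), Homer2 (chr7:81706876-81707175, minus strand) and Homer3 (chr8:70282749-70283048, plus strand).
Homer1: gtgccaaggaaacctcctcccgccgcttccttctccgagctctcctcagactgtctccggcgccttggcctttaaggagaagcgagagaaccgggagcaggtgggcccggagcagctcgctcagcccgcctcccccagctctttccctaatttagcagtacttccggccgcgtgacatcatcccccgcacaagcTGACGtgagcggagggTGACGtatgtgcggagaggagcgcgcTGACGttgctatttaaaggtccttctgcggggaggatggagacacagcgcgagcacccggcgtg
Homer2: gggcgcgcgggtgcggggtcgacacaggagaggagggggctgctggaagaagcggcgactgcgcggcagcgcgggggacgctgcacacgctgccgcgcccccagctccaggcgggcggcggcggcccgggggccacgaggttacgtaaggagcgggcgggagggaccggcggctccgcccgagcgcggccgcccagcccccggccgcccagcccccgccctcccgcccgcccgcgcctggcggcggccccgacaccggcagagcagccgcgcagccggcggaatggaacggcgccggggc
Homer3: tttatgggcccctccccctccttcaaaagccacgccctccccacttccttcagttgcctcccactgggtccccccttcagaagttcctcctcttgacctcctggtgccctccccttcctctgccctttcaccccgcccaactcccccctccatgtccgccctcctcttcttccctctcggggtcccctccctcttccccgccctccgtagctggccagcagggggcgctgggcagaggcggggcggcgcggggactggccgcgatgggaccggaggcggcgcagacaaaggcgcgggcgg
The Homer1 window held 3 matches, and the windows of Homer2 and Homer3 held 0. Of the 32851 promoter windows of the genome, 20.8% held at least 1 match and 1.03% held at least 3. The GC content of the printed windows was 63% for Homer1, 82.3% for Homer2 and 69.7% for Homer3, and the Homer2 window held 49 CG dinucleotides against 26 for Homer1 and 19 for Homer3. The second listed starts of Homer1 and Homer2, not printed, had 44.7% and 52.3% GC and 0 matches each. A match is a run of letters and not a measured binding site.

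Total counts ran from 37414241 to 52497799 fragments per library. Counts of the 10 genes ran from 2049 to 38854 in a library, and together they made up 0.261% to 0.307% of a library. The gene annotated as mouse Orai1 stood at 7.16 to 8.08 CPM (a gene's count relative to the scaled library total) in the wild-type and at 313 to 331 in the Tg(ORAI1)Ibd libraries, which matched the labels. The hippocampal neuron markers fixed for this work were all present, with 0 of 10 at 0 counts. All 18 of 18 choroid plexus markers were lower in Tg(ORAI1)Ibd, with a summed level of 3955 to 6117 CPM in wild-type and 564 to 879 CPM in Tg(ORAI1)Ibd libraries, a median log2 fold change of -2.75 and 0 markers at 0. Choroid plexus lies next to the hippocampus, and its part in the differences below was not tested. In these bulk samples, fewer cells of a type and less RNA per cell cannot be told apart.

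In wild-type hippocampi the 10 genes were ordered by FPKM, the fragments of a gene relative to the length of its merged exons and to the library total, which allows genes to be set side by side. Dlg4 (PSD-95) stood first at 54.2, 54.3 and 51.9 FPKM in wild-type mice 1, 2 and 3, and Shank1 followed at 55.0, 54.2 and 48.2 FPKM. The ranges of these 2 genes overlapped, as did those of the next 2, Dlg3 (38.0 ± 0.81 FPKM, SD, n = 3) and Shank3 (36.2 ± 1.79). The ranges of the 3 mice did not overlap between any later neighbours in the order, although some gaps were narrow. Dlg2 had 22.2 ± 0.80 FPKM, Shank2 18.5 ± 1.16, Homer3 14.2 ± 1.60, Dlg1 11.7 ± 0.40, Homer1 9.42 ± 1.26 and Homer2 7.23 ± 0.87. Dlg4 was at percentile 96.1 of the tested genes and Homer2 at percentile 65.5.

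Below ranks 1 and 2 this order depended on the length used. Dlg3 moved from rank 3 to rank 5 per longest and rank 6 per principal transcript, and Dlg2 from rank 5 to ranks 3 and 4. The merged exons of the 9 Homer2 transcripts span 12621 bp, while its longest transcript has 10982 bp and its principal transcript 1634 bp. Per length of the principal transcript, Homer2 had 55.8 FPKM and moved from rank 10 to rank 3, while Homer3 had 18.8 and moved from rank 7 to rank 10. Dlg4 and Shank1 kept ranks 1 and 2 with all 3 lengths, but they stood close only with merged exons. Dlg4 had 112 FPKM per longest and 203 per principal transcript, and Shank1 had 56.2 with either. The levels of the genes relative to each other are therefore known only under a stated length. The CPM of a gene and its main test between genotypes do not use the length. Family sums of FPKM, shares within a family and gene length offsets do use it.

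Between genotypes, Homer3 rose and no other scaffold gene passed the test. With edgeR's quasi-likelihood test and a Benjamini-Hochberg adjusted p under 0.05, 1 of 10 genes was called higher in Tg(ORAI1)Ibd and 0 were called lower, beside 3.10% of all tested genes called higher and 4.0% called lower. At an unadjusted p under 0.05 there were 4 of 10 (Dlg1, Dlg2, Homer2 and Homer3), beside 27.8% of all genes, and DESeq2's Wald test called 2 (Homer2 and Homer3), beside 11.7%. The values of the genotypes did not overlap for 3 of 10 (Dlg1, Dlg2 and Homer3), beside 34.9% of all genes. The median log2 fold change of the 10 genes was 0.01, beside -0.01 over all genes, and 5 lay above 0 and 5 below. These counts over 10 genes are small, nothing is read from them about the genes as a group, and the plot of CPM in each library shows how closely most of them stood.

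**Figure D1:**
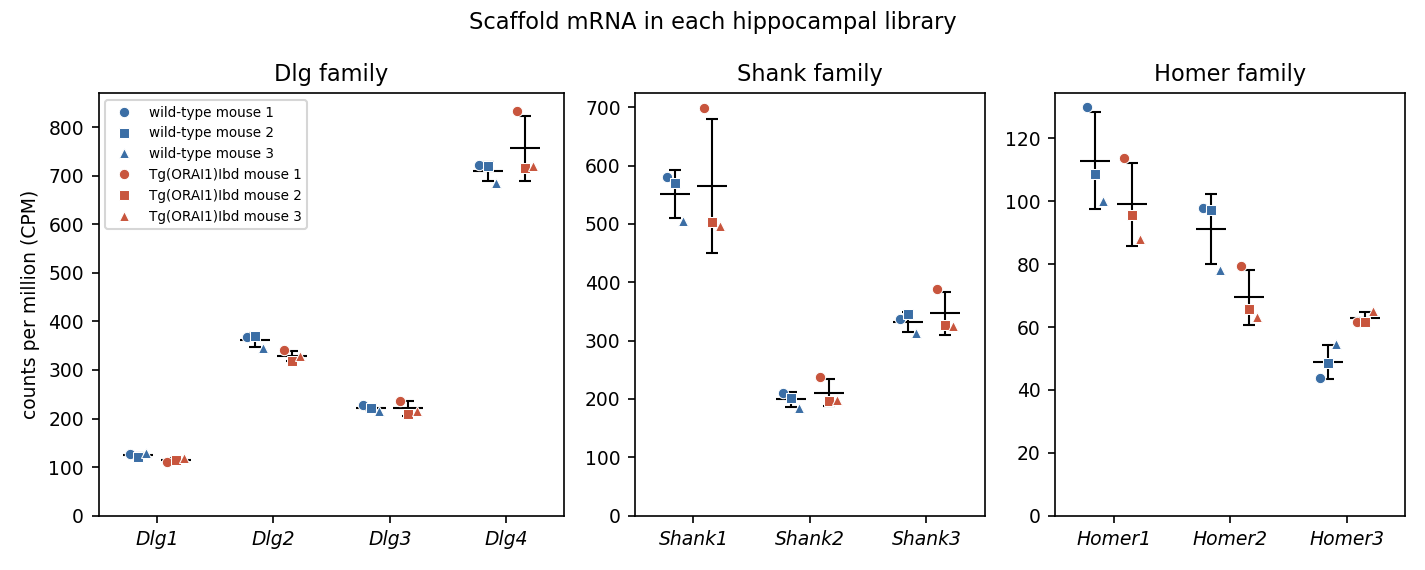
CPM of each gene (vertical axis from 0, a separate scale in each panel) in the 3 wild-type (blue) and 3 Tg(ORAI1)Ibd (red) libraries, with the symbol giving the mouse and black bars giving mean ± SD. Homer3 is the gene called higher (43.8 to 54.4 against 61.5 to 65.2 CPM); heights of different genes are not per length and are not to be compared.

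Homer3 (ENSMUSG00000003573, GRCm38 chr8:70282827-70294361, plus strand), the Homer family member best known from cerebellum, had 43.8, 48.6 and 54.4 CPM in wild-type mice 1, 2 and 3 and 61.5, 61.7 and 65.2 CPM in Tg(ORAI1)Ibd mice 1, 2 and 3. Every transgenic library lay above every wild-type library, and the wild-type libraries were spread more widely than the transgenic ones. The mean went from 48.9 ± 5.34 to 62.8 ± 2.05 CPM (SD, n = 3), which is 28.4% more, with a log2 fold change of 0.36 (SE 0.08) and an adjusted p of 0.0422 in edgeR's quasi-likelihood test. The call lay close to the threshold. It was lost without wild-type mouse 1 (adjusted p = 0.130), wild-type mouse 2 (0.140), or Tg(ORAI1)Ibd mouse 1 (0.0541), 2 (0.0881) or 3 (0.112), and it held without wild-type mouse 3 (0.0216). The share of all genes called, 7.10% on all libraries, was 0.399%, 0.487% and 5.28% without wild-type mice 1, 2 and 3. Without Tg(ORAI1)Ibd mice 1, 2 and 3 this share was 5.93%, 0.978% and 0.552%. The log2 fold change of Homer3 ran from 0.30 to 0.45 in these fits. With the trend of each library on transcript GC content removed, the log2 fold change was 0.25 and the adjusted p 0.137 in the same edgeR test.

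Homer2 (ENSMUSG00000025813, chr7:81600481-81707527, minus strand), whose product has the same EVH1 and coiled-coil parts as long Homer1, had 97.9, 97.3 and 78.3 CPM in the wild-type and 79.5, 65.9 and 63.2 CPM in the Tg(ORAI1)Ibd libraries. Wild-type mouse 3 lay just under Tg(ORAI1)Ibd mouse 1, so the groups overlapped at this pair. The means were 91.2 ± 11.2 and 69.5 ± 8.74 CPM (SD, n = 3), a log2 fold change of -0.39 (SE 0.11) with an adjusted p of 0.0761 in edgeR's test. This did not pass the threshold in edgeR's main fit on all 6 libraries. It did in DESeq2's Wald test (adjusted p = 0.0164) and, with edgeR, with no filter on low counts (0.0365). On all 6 libraries edgeR also called Homer2 with the replicate number as a block (0.0363) and with this block and GC offsets (0.0239). It passed as well without Tg(ORAI1)Ibd mouse 1 (log2 fold change -0.50, adjusted p = 0.0388) and without wild-type mouse 3 (-0.48, 0.0461). In those fits 5.93% and 5.28% of all genes were called. Without any other mouse the log2 fold change lay between -0.33 and -0.30, with adjusted p from 0.196 to 0.267, beside 0.399% to 0.978% of all genes called. With GC offsets the log2 fold change was -0.43 (adjusted p = 0.0971), with GC taken from the longest transcript -0.29 (0.249), and with gene length offsets -0.25 (0.212).

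Homer1, the family member with the activity-induced short forms described above, had 130.0, 109 and 100.02 CPM in the wild-type and 114, 95.6 and 88.0 CPM in the Tg(ORAI1)Ibd libraries. The spread within each genotype was as wide as the distance between them, and the log2 fold change of -0.19 (SE 0.12) had an adjusted p of 0.350 in edgeR's test. It ran from -0.06 without wild-type mouse 1 to -0.30 without Tg(ORAI1)Ibd mouse 1, and neither passed. With GC offsets it was 0.02, on the other side of 0. Its transcript is the poorest in GC of the 10, with 39.7% for the principal transcript.

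The summed level of the Homer family overlapped between the genotypes, while the shares of Homer2 and Homer3 in it did not. Summed over the 3 genes, Homer mRNA was 30.9 ± 0.376 FPKM in wild-type and 32.0 ± 1.24 in Tg(ORAI1)Ibd (SD, n = 3), while the sum of their CPM, which uses no length, was 252.9 ± 19.5 and 231 ± 20.4, in the other direction. Homer3 made up 40.6%, 45.7% and 52.1% of this sum in the wild-type mice and 53.1%, 57.6% and 60.5% in the Tg(ORAI1)Ibd mice. Homer2 made up 24.8%, 25.0% and 20.4% in the wild-type and 18.7%, 16.8% and 16.0% in the Tg(ORAI1)Ibd mice. Neither gene's shares overlapped between the genotypes, and the exact two-sided permutation test gave p = 0.1 for each, the smallest p that 3 against 3 mice can give. Shares of a family add up to the whole, so a larger share of 1 gene lowers the others, and these are not separate results. The share tests, 1 for each of the 10 scaffold genes, were not adjusted. The shares of Homer1 overlapped, at 30.5% ± 3.70 and 25.8% ± 2.35 (exact permutation p = 0.2). With principal transcript lengths Homer3 made up 16.4% and 23.7% and Homer2 48.3% and 41.4% of the sum in the 2 genotypes, so the sizes of the shares, but not the side on which each genotype lay, followed the length used.

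**Figure D2:**
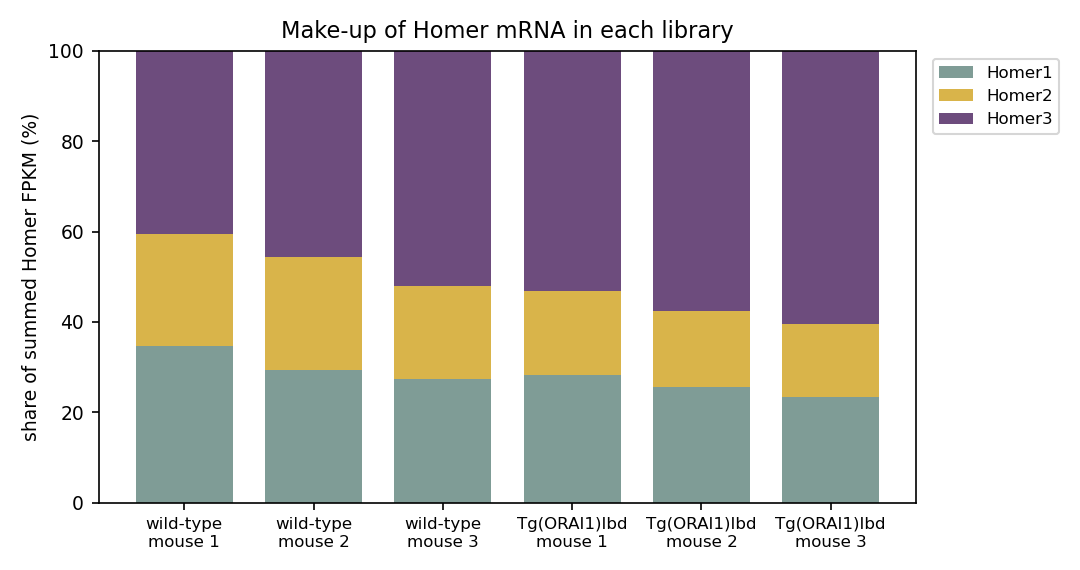
Share of Homer1, Homer2 and Homer3 in the summed FPKM of the family (vertical axis, %) in each library, with lengths of merged exons. The Homer3 share is 40.6% to 52.1% in wild-type and 53.1% to 60.5% in Tg(ORAI1)Ibd libraries, and wild-type mouse 3 stands nearest to the transgenic mice.

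No Dlg gene passed the test between genotypes. Dlg1, whose product SAP97 takes part in AMPA receptor traffic, had 127, 121 and 129 CPM in the wild-type and 109.8, 114 and 119.5 CPM in the Tg(ORAI1)Ibd libraries. Dlg2, which encodes PSD-93, had 368, 369.9 and 345 CPM in the wild-type and 340.2, 319 and 328 CPM in the Tg(ORAI1)Ibd libraries. In both genes every transgenic library lay below every wild-type library, by a narrow margin. Their log2 fold changes were -0.13 (SE 0.05) each, and neither passed edgeR's test (adjusted p = 0.130 each). With GC offsets the log2 fold changes were -0.03 for Dlg1 and -0.02 for Dlg2.

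Dlg3, an X-linked gene for SAP102, had 227, 223 and 216 CPM in the wild-type and 237, 209 and 216 CPM in the Tg(ORAI1)Ibd libraries, with a log2 fold change of -0.01 (SE 0.06). Dlg4, whose product PSD-95 is the most abundant scaffold of its family at the mature synapse, had 721, 719 and 686 CPM in the wild-type and 833, 715 and 720.2 CPM in the Tg(ORAI1)Ibd libraries. Only the library of Tg(ORAI1)Ibd mouse 1 stood above the wild-type range, and the log2 fold change of 0.09 (SE 0.07) had an adjusted p of 0.428 in edgeR's test. Without that mouse it was 0.02. Summed over the 4 genes, Dlg mRNA was 125.5 ± 2.64 FPKM in wild-type and 125.4 ± 7.07 in Tg(ORAI1)Ibd (SD, n = 3).

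Within this sum Dlg4 took a larger and Dlg2 a smaller share in every Tg(ORAI1)Ibd library than in any wild-type library. The share of Dlg4 was 42.6%, 43.0% and 42.4% in the wild-type and 46.7%, 45.0% and 44.3% in the Tg(ORAI1)Ibd mice, and that of Dlg2 was 17.7%, 18.0% and 17.4% against 15.5%, 16.3% and 16.4% (exact permutation p = 0.1 for each). As with the Homer genes, these shares are not separate results and their tests were not adjusted. Shares of Dlg1 (9.35% ± 0.469 against 8.52% ± 0.803, exact permutation p = 0.2) and Dlg3 (30.3% ± 0.153 against 30.0% ± 0.237, p = 0.3) overlapped. The principal transcript of Dlg4 has 57.9% GC and those of Dlg1 and Dlg2 have 45.2% and 44.5%, and with GC offsets the log2 fold changes of all 3 lay between -0.03 and 0.00. With GC taken from the longest transcript, which has 46.8% for Dlg4, the log2 fold change of Dlg4 was 0.17, and with gene length offsets it was 0.23, neither of which passed (edgeR adjusted p = 0.285 and 0.114). Over the 10 scaffold genes Spearman's rho between the GC content of the principal transcript and the log2 fold change was 0.70, and over 19079 genes it was 0.39, given as a description since the genes share the same libraries.

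The Shank genes showed no difference between genotypes beyond the spread of the mice. Shank1 had 579.7, 569.8 and 505 CPM in the wild-type and 698, 503 and 496 CPM in the Tg(ORAI1)Ibd libraries. Tg(ORAI1)Ibd mouse 1 stood above all other mice, and the other 2 transgenic mice stood below the wild-type range. The log2 fold change was 0.04 (SE 0.13) on all 6 libraries and -0.14 without that mouse, and neither passed edgeR's test (adjusted p = 0.892 and 0.207).

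Shank2 had 211, 202 and 185 CPM in the wild-type and 237, 197 and 199 CPM in the Tg(ORAI1)Ibd libraries, with a log2 fold change of 0.08 (SE 0.08). Shank3 had 337, 346 and 313 CPM in the wild-type and 389, 326 and 326 CPM in the Tg(ORAI1)Ibd libraries, with a log2 fold change of 0.06 (SE 0.08). Both had their highest value in Tg(ORAI1)Ibd mouse 1, and without it their log2 fold changes were -0.01 and -0.03. Shares within the family overlapped for all 3 genes. Shank1 made up 49.0% ± 0.541 and 48.2% ± 2.26, Shank2 17.3% ± 0.310 and 17.7% ± 0.756, and Shank3 33.8% ± 0.717 and 34.1% ± 1.51 in wild-type and Tg(ORAI1)Ibd (SD, n = 3; exact permutation p = 0.6, 0.4 and 0.6).

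**Figure D3:**
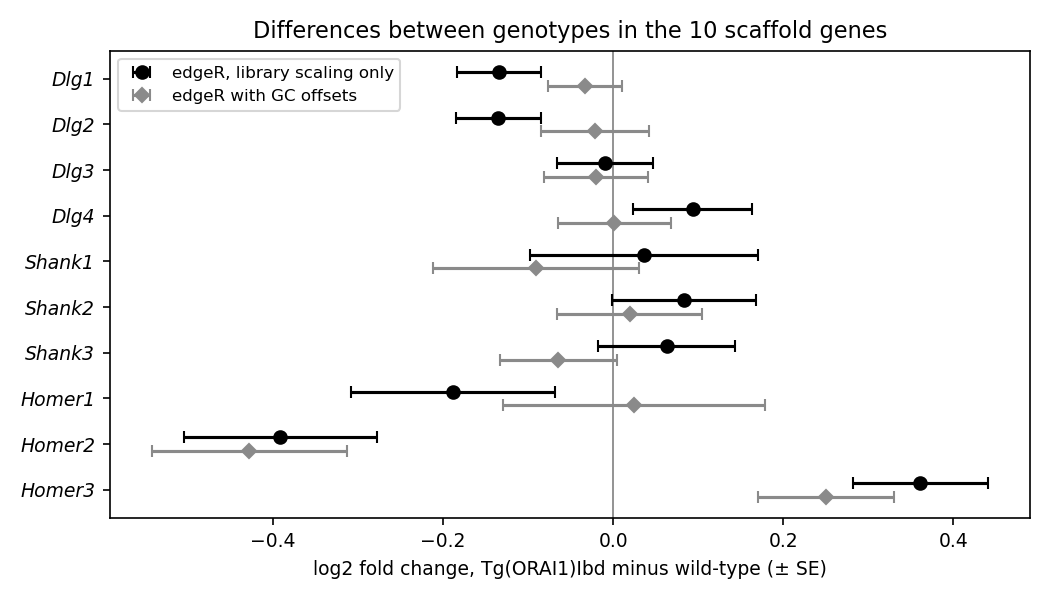
Log2 fold change of each gene (horizontal axis, Tg(ORAI1)Ibd minus wild-type, ± SE) in edgeR's fit, with library scaling only (black circles) and with GC offsets (grey diamonds). Homer2 (-0.39 and -0.43) and Homer3 (0.36 and 0.25) lie farthest from 0 in both fits, while Dlg1, Dlg2, Dlg4 and Homer1 lie at -0.03 to 0.02 with the offsets.

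Tg(ORAI1)Ibd mouse 1 lay above both other transgenic mice in 8 of the 10 genes, beside 39.1% of all tested genes. Its log2 CPM exceeded the mean of the other 2 by a median of 0.24 over the 10 genes, from -0.09 for Dlg1 to 0.48 for Shank1. Wild-type mouse 3 was the lowest wild-type library in 8 of the 10 genes, beside 39.4% of all genes, with a median of -0.11 against the other 2 wild-type mice. The activity-regulated genes stood on the same side in these mice. Over the 12 genes of that list the median was 0.74 in Tg(ORAI1)Ibd mouse 1 and -0.53 in wild-type mouse 3, and over the 18 choroid plexus markers it was 0.47 and -0.43. Markers of other cells stood on the opposite side, with medians of -0.59 and 0.35 for microglia, -0.41 and 0.12 for endothelium and -0.16 and 0.18 for astrocytes, while oligodendrocyte markers were at 0.01 and 0.26. Interneuron markers stood on the side of the scaffolds, at 0.15 and -0.29, and pan-neuronal markers were at 0.07 and -0.02. Their part in the scaffold values was not tested.

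**Figure D4:**
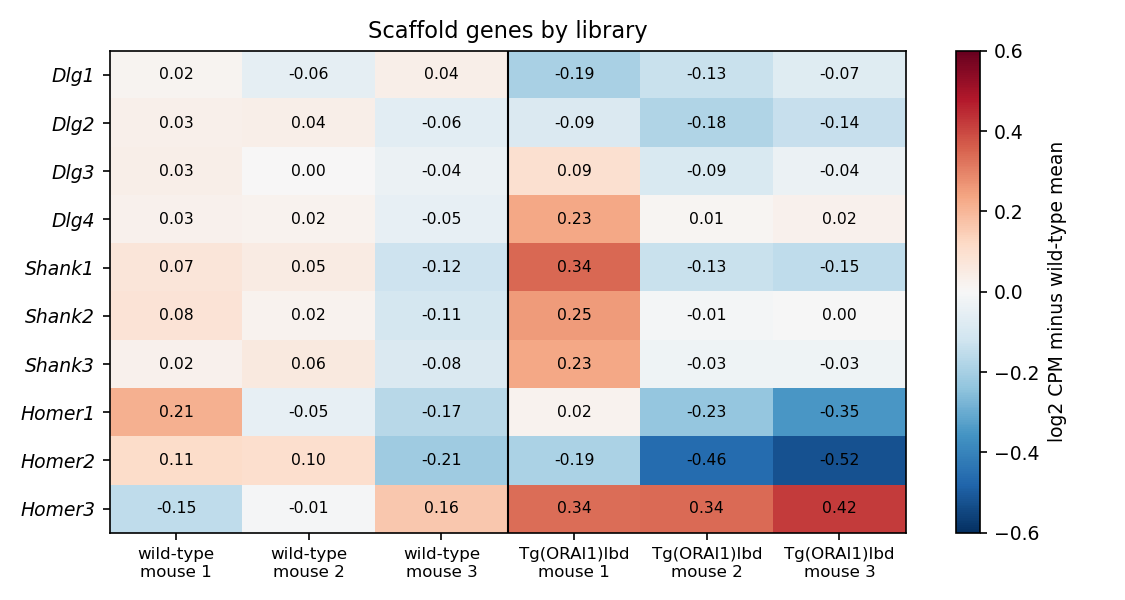
Log2 CPM of each gene in each library minus the wild-type mean of that gene (colour and printed value). The column of Tg(ORAI1)Ibd mouse 1 is positive for the 3 Shank genes (0.23 to 0.34) where the other transgenic columns are at or below 0, and the Homer2 and Homer3 rows have opposite signs in all 6 libraries.

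Across the 6 libraries each gene was set beside the 11191 genes with a mean log2 CPM above 3, by Pearson's r of log2 CPM. Such r over 6 libraries are high for the best of many genes and are given as a description, since the points share genotype and library. The nearest gene was Rpl3, a ribosomal protein, for Homer3 (r = 0.996), Cdkl3, a cyclin-dependent kinase-like kinase, for Homer2 (0.998) and Nmt2, an N-myristoyltransferase, for Homer1 (0.997). It was 1700020I14Rik for Dlg1 (0.996), Gclc for Dlg2 (0.996), Rph3a for Dlg3 (0.992) and Rprd1b for Dlg4 (0.998). For the Shank genes it was Tuba4a for Shank1 (0.997), Celsr2 for Shank2 (0.997) and Atp5h for Shank3 (0.994).

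Among the 10 genes themselves, Dlg3, Dlg4 and the 3 Shank genes each had their highest value in Tg(ORAI1)Ibd mouse 1, and the r between them include that library. The nearest scaffold gene was Shank3 for Dlg4 (r = 0.957), Shank1 (0.956) and Shank2 (0.958), and Shank1 for Dlg3 (0.938). Dlg2 and Homer2 were nearest to each other (0.970), and Homer1 was nearest to Homer2 (0.859). Homer3 had the lowest r to its nearest scaffold gene, Dlg4 at 0.295, with Homer2 as its farthest at -0.917. Next came Dlg1, with Dlg2 as its nearest at r = 0.520 and Dlg4 as its farthest at -0.783.

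The genes that encode binding partners of the scaffolds were described from 6 lists of 73 genes, all tested. Of these, 5 rose and 9 fell in Tg(ORAI1)Ibd, which is 14 beside a background of 7.10% of all genes called in either direction, and the median log2 fold change was -0.07. Without wild-type mouse 1 or 2, or Tg(ORAI1)Ibd mouse 2 or 3, 0 rose and 1 fell, beside 0.399% to 0.978% of all genes called in those fits, while 0 rose and 8 fell without wild-type mouse 3 and 4 rose and 10 fell without Tg(ORAI1)Ibd mouse 1, beside 5.28% and 5.93% of all genes. With GC offsets 1 rose and 2 fell, beside 2.16% of all genes called in either direction.

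Of the 73 genes, the largest fall was that of Kcna4, a voltage-gated potassium channel subunit held by the PDZ domains of PSD-95. In the list of 20 receptors, channels and adhesion proteins bound by PSD-95, 2 rose and 4 fell, with a median of -0.08. Kcna4 went from 37.4 ± 1.99 to 23.1 ± 2.05 CPM (SD, n = 3; log2 fold change -0.69, edgeR adjusted p = 0.00712), and Kcna1, another subunit of the same channel family, from 84.6 ± 3.02 to 62.3 ± 6.60 CPM (-0.44, adjusted p = 0.0271). These 2 passed with GC offsets as well (adjusted p = 0.00770 and 0.0447). The adhesion protein genes Lrrtm2 (-0.38) and Lrrc4c (-0.24) also fell, and Lrrc4b (0.22) and Adgrb1 (0.27) rose, none of which passed with GC offsets (adjusted p from 0.156 to 0.323). All 3 NMDA receptor subunit genes of the list and all 3 genes for AMPA receptor auxiliary subunits missed the threshold.

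Of 14 genes for signalling and adaptor proteins bound by PSD-95, 1 rose and 3 fell, with a median of 0.01. Dynll1, a dynein light chain, rose by 0.21 on the log2 scale (adjusted p = 0.0448). Cnksr2 (-0.37), Frmpd4 (-0.36) and Arhgap32 (-0.34), which encode adaptors and a GTPase-activating protein of the density, fell (adjusted p = 0.0174, 0.0249 and 0.0353). Of 12 other membrane-associated guanylate kinases and LIN7 adaptors, 1 fell, Lin7a, from 15.9 ± 2.21 to 10.4 ± 0.88 CPM (-0.61, adjusted p = 0.0313). None of these 5 passed with GC offsets, where the adjusted p ran from 0.0505 to 0.121, although the log2 fold change of Dynll1 was 0.24 and that of Lin7a -0.49 there. The 1 partner gene called higher with the offsets was Cript, which encodes a PSD-95 binding protein (log2 fold change 0.27, adjusted p = 0.0411), and Dynll1, at an adjusted p of 0.0505, lay just outside the threshold. Cript is named here after its values were seen.

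Between the layers, none of the 4 Dlgap linker genes passed edgeR's test (0 rose and 0 fell, median -0.03), while 3 had an unadjusted p under 0.05 and DESeq2's Wald test called 2, 1 in each direction. Their log2 fold changes spanned -0.26 for Dlgap1 to 0.25 for Dlgap3. Of 11 genes for actin regulators and signalling proteins that bind Shank, 2 rose and 0 fell, with a median of 0.06. These were Baiap2, which encodes the actin regulator IRSp53 (240.9 ± 9.74 to 291 ± 19.6 CPM, log2 fold change 0.27, adjusted p = 0.0426), and Dbnl, which encodes the actin-binding protein ABP1 (0.21, adjusted p = 0.0440). With GC offsets neither passed (adjusted p = 0.143 and 0.162).

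The ligands of Homer, 12 genes for metabotropic glutamate receptors, inositol trisphosphate receptors, ryanodine receptors, Trpc1 and further binding proteins, lay mostly below 0. Of these 10 had a log2 fold change below 0 and 2 above, with a median of -0.21, but 1 passed the test. Grm5, the receptor mGluR5 that Homer links to calcium stores, went from 304.6 ± 29.4 CPM in wild-type to 224 ± 3.89 in Tg(ORAI1)Ibd (SD, n = 3; log2 fold change -0.44, SE 0.07, edgeR adjusted p = 0.0222). With GC offsets it was -0.30 (adjusted p = 0.0887). The largest value above 0 was 0.07, for Agap2.

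Among the other lists, the choroid plexus markers given above all fell, and the rest held 0 or 1 call each in edgeR's test, beside the 7.10% of all genes. Of 12 activity-regulated genes 0 rose and 0 fell in edgeR's test (1 at an unadjusted p under 0.05, and 0 in DESeq2's test), with a median of 0.19 and a range from -0.17 for Bdnf to 0.91 for Egr2. Of 12 scaffolds of the presynaptic active zone 1 fell, Pclo, which encodes piccolo (-0.27, adjusted p = 0.0463). None of 8 pan-neuronal markers passed (median 0.00; 1 at an unadjusted p under 0.05 and 1 in DESeq2's test), while Gad2 fell among 7 interneuron markers (-0.52, adjusted p = 0.0272) and Neurod2 rose among 10 hippocampal neuron markers (0.32, adjusted p = 0.0239). At an unadjusted p under 0.05 there were 3 interneuron and 3 hippocampal neuron markers, and DESeq2's test called 1 and 3. For the active zone scaffolds these tallies were 2 and 1. Markers of astrocytes (0 of 6), oligodendrocytes (0 of 6), microglia (0 of 5) and thalamus or septum (0 of 7, median -0.25) did not pass edgeR's test, with 0, 0, 1 and 3 at an unadjusted p under 0.05 and 0, 0, 0 and 2 called by DESeq2, and 1 of 5 endothelial markers rose, Cldn5 (0.66, adjusted p = 0.0430). With GC offsets Pclo, Gad2, Neurod2 and Cldn5 had log2 fold changes of -0.17, -0.40, 0.22 and 0.54 and did not pass (adjusted p = 0.211, 0.0887, 0.0624 and 0.104).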

How the data were processed

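Hippocampal RNA (polyA RNA per the labels) of females, 3 wild-type and 3 Tg(ORAI1)Ibd, was sequenced with reads of 76 bp. Per the submitters' processing notes, Trimmomatic, STAR and mm10 were used. The authors deposited raw fragment counts per gene and exonic lengths, made with featureCounts 1.5.0-p1 on Ensembl 95 (reversely stranded, primary alignments, mapping quality of at least 3). Columns were matched to mice by label.

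The 10 genes and all lists were chosen with earlier results of these data known. Genes were tested over the whole table with edgeR's quasi-likelihood test (edgeR 4.0.16, R 4.3.3), TMM scaling, filterByExpr with a minimum count of 10 and Benjamini-Hochberg adjustment at 0.05. CPM used TMM totals. FPKM used library totals and deposited lengths. All 10 genes were named. From other lists, genes with an adjusted p under 0.05 and each list's largest rise and fall could be named. Results of 1 list are not reported here. GC offsets were loess trends (span 0.5) on the GC of the principal transcript. Overlapping genes on the same strand had at most 203 counts. DESeq2 1.42.0, limma 3.58.1, other scalings, filters, offsets and left-out mice were tried. NOISeq, the test in the study, was not repeated. Fits were tested on simulated data.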

Additional observations from a re-analysis of the deposited data

How the results depend on the processing

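Homer3 stayed above 0 and Homer2 below 0 in all 19 alternatives run for each. On all mice, Homer3 was called in 9 of 13 alternatives and lost its call with GC offsets (0.25), GC offsets with the replicate block (0.25), GC and gene length offsets (0.24) and GC of the longest transcript (0.25, added after seeing the data), so that 0 of the 10 genes were called higher there. Homer2 was called, as the 1 gene lower, with DESeq2's Wald test (-0.38), no filter (-0.38), the replicate block (-0.39) and GC offsets with the block (-0.43). With 1 mouse left out, Homer3 ran from 0.30 to 0.45 and Homer2 from -0.50 to -0.30. In these fits 0 to 1 of the scaffold genes were called higher and 0 to 1 lower, beside 0.399% to 5.93% of all genes.

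Log2 fold changes that passed no test crossed 0 as follows. With GC offsets, alone, with the block, with gene length and from the longest transcript, Shank1 was -0.091, -0.103, -0.035 and -0.093, Shank3 -0.064, -0.066, -0.019 and -0.074, and Homer1 0.025, 0.011, 0.092 and 0.074. With GC and gene length offsets Dlg1 was 0.025 and Dlg2 0.061, and with gene length offsets, alone and with the block, Dlg2 was 0.022 and 0.022 and Dlg3 0.037 and 0.034. Dlg3 was 0.0018 with no filter and 0.0034 with at least 10 counts in every library, and Dlg4 was -0.00076 with GC offsets and the block. With 1 mouse left out, Dlg3 ran from -0.064 to 0.054, Shank1 from -0.14 to 0.15, Shank2 from -0.0093 to 0.16 and Shank3 from -0.027 to 0.13.

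Of the 73 partner genes, 8 were called higher and 16 lower with DESeq2's Wald test, 1 and 2 with GC offsets (alone, with gene length or from the longest transcript), 1 and 4 with GC offsets and the block, 3 and 4 with gene length offsets, and 2 and 4 with these and the block. With the replicate block alone, 0 were called higher. With 1 mouse left out, 0 to 4 were called higher and 1 to 10 lower. Same-numbered mice did not pair (correlations of their deviations from -0.36 to 0.40 over 3 pairs). The causes of these changes were not tested, and the fits with 1 mouse left out also had fewer mice. With 3 mice per genotype, small differences could be missed.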
